A study of Ovis aries with 6 samples.

Results

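Kelch, ASB and cullin genes code for parts of the cullin-RING ubiquitin ligases. They were examined here in the longissimus dorsi muscle of sheep of the breeds Qianhua Mutton Merino, abbreviated QHMM, and Small Tail Han, abbreviated STH. A row of the gene count table was a member when its symbol was KLHL, KBTBD, ASB or CUL followed by a digit, and 67 of the 23144 rows met this rule. They comprised 31 KLHL, 10 KBTBD, 18 ASB and 8 CUL genes. Poly(A) RNA from 3 QHMM and 3 STH animals was sequenced on an Ion Proton instrument, with 1 library per animal, and the comparison was STH vs. QHMM throughout. Both groups were adult females aged 1 year that were reared together with free access to food and water, so that breed was the only labelled difference. The paper describes the live weight before slaughter as taken after fasting. The muscle was taken whole, and the 3 animals of a breed are the only replicates. The libraries held from 10982191 to 14334544 counts.

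In a cullin-RING ligase, an elongated cullin binds a RING protein and its ubiquitin-loaded E2 enzyme at its C-terminal end and a substrate receptor at its N-terminal end. CUL3 takes BTB-kelch proteins (the KLHL and KBTBD families) as receptors, which bind it through the BTB domain and the substrate through kelch repeats. CUL5 takes SOCS-box proteins such as the ASB family through elongins B and C, and the substrate is held by ankyrin repeats. The ligases are switched on when the small protein NEDD8 is attached to the cullin. Several of these receptors are enriched in skeletal muscle. KLHL40, KLHL41 and KBTBD13 are disease genes of nemaline myopathy in humans, and ASB2 directs filamins to degradation during muscle differentiation. The table lists KLHL40 under its older symbol KBTBD5 and KLHL41 as KBTBD10, as its own column of protein matches shows.

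Levels between genes were compared as RPKM, reads scaled by the length of the gene and the total of the library. Differences between breeds were tested on the counts with edgeR, and values per animal are given as normalized counts, which are scaled by edgeR's TMM factors to the median library. The markers of the tissue were abundant. ACTA1, CKM, TTN, NEB and DES together held 12.9% to 18.6% of the counts of a library. MYH1, MYH2 and MB were not used here, since no row carries these symbols. On the second principal component of all tested genes, with 19.1% of the variance, the outlying libraries were QHMM replicate 2 and STH replicate 3.

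A few receptors dominated the families. Summed over the members, the level lay between 1762 and 2287 RPKM in QHMM animals and between 2318 and 2524 RPKM in STH animals. On normalized counts the sums overlapped, at 55482 to 70917 and 62117 to 85019. KBTBD10 (KLHL41), which lies at the sarcomere and helps to keep nebulin stable, held 32.2% of the summed mean level. ASB2 held 19.1% and KBTBD5 (KLHL40) 6.81%. With CUL4A, ASB5 and ASB11 these genes made up 74.1% of the total. Of the 67 members, 5 had a mean RPKM of at least 100, 22 of at least 10 and 52 of at least 1. KLHL1, KLHL35 and ASB17 had no read in any library, which allows up to 3 counts per library.

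**Figure D1:**
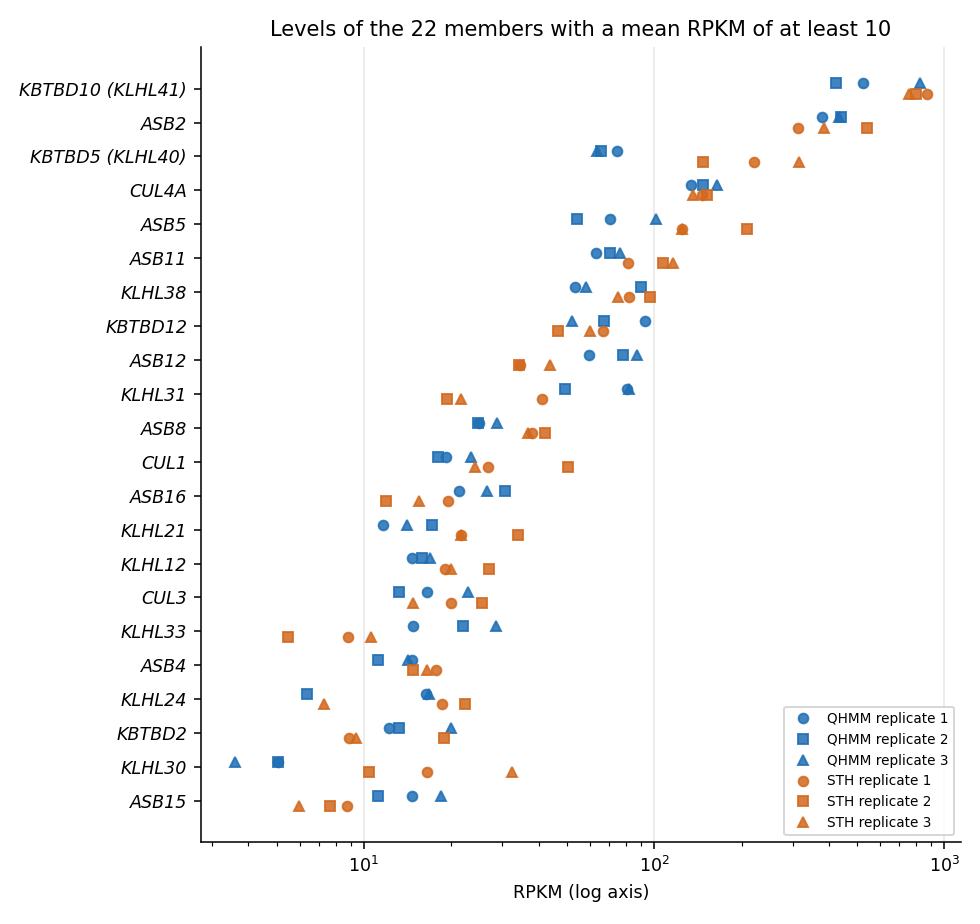
RPKM (log axis) of the 22 members with a mean of at least 10, with 1 point per animal (blue, QHMM; orange, STH; circle, square and triangle for replicates 1, 2 and 3). KBTBD10 had the highest mean level, and the breeds lay apart for KBTBD5, ASB5, KLHL31, ASB12, KLHL33, KLHL30 and ASB15, among others.

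The families differed in how many of their genes were at measurable levels. Genes with a mean of 1 RPKM or more were 17 of 18 in the ASB family, 8 of 8 in CUL, 21 of 31 in KLHL and 6 of 10 in KBTBD. The median level was 6.54 RPKM for the ASB family, 5.88 for CUL, 1.95 for KLHL and 1.26 for KBTBD, although KBTBD holds the most abundant member. By mean RPKM over the 6 libraries, KBTBD10 ranked 116th and ASB2 198th of all genes in the table. The summed ASB level overlapped between the breeds, with 676 to 825 RPKM in QHMM and 674 to 1004 in STH. The CUL sums overlapped too, at 189 to 236 and 189 to 245 RPKM, as did the KLHL sums, at 238 to 259 and 225 to 258. The KBTBD sum was 574 to 966 RPKM in QHMM and 1019 to 1169 in STH, and it consisted mostly of KBTBD10 and KBTBD5. On normalized counts the KBTBD sums overlapped, at 23671 to 34276 and 33097 to 45925.

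Of the 67 members, 60 passed the filter for low counts and were tested. Besides the 3 genes without reads, KLHL3, KLHL10, KLHL32 and KBTBD3 were left out, with at most 19 counts in any library. The test was edgeR's quasi-likelihood F test with Benjamini-Hochberg adjustment over all 12506 genes. Calls required an FDR below 0.05 together with a change of more than 0.585 on the log2 scale in either direction. Among the tested members 5 were called (8.33%), 2 higher and 3 lower in STH. In the background of all tested genes, 3.45% were called, 1.62% higher and 1.83% lower. The called members were KBTBD5 and KLHL30, which rose in STH, and KLHL31, KLHL33 and ASB15, which fell. Each of the 5 has a mean level of at least 10 RPKM, and edgeR called 0 of the 30 tested members at 1 to 10 RPKM and 0 of the 8 below 1 RPKM. The share of all tested genes called in these bands of level was not computed, so the calls cannot be tied to level here. The median log2 fold change was -0.13 over the 60 members and 0.02 over all tested genes. The median absolute change was 0.43 and 0.34. The FDR of the 55 members that were not called lay between 0.0640 and 0.991. At an unadjusted p below 0.05 there were 18 members, beside 19.2% of all tested genes. With QHMM replicate 2 and STH replicate 3 both left out, each of the 5 calls was lost, at an FDR between 0.116 and 0.137, as it was with limma-trend on unfiltered log2(RPKM + 1). Over all genes these settings left 11 and 78 calls, against 432 in the main fit, so the loss is not particular to the members.

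**Figure D2:**
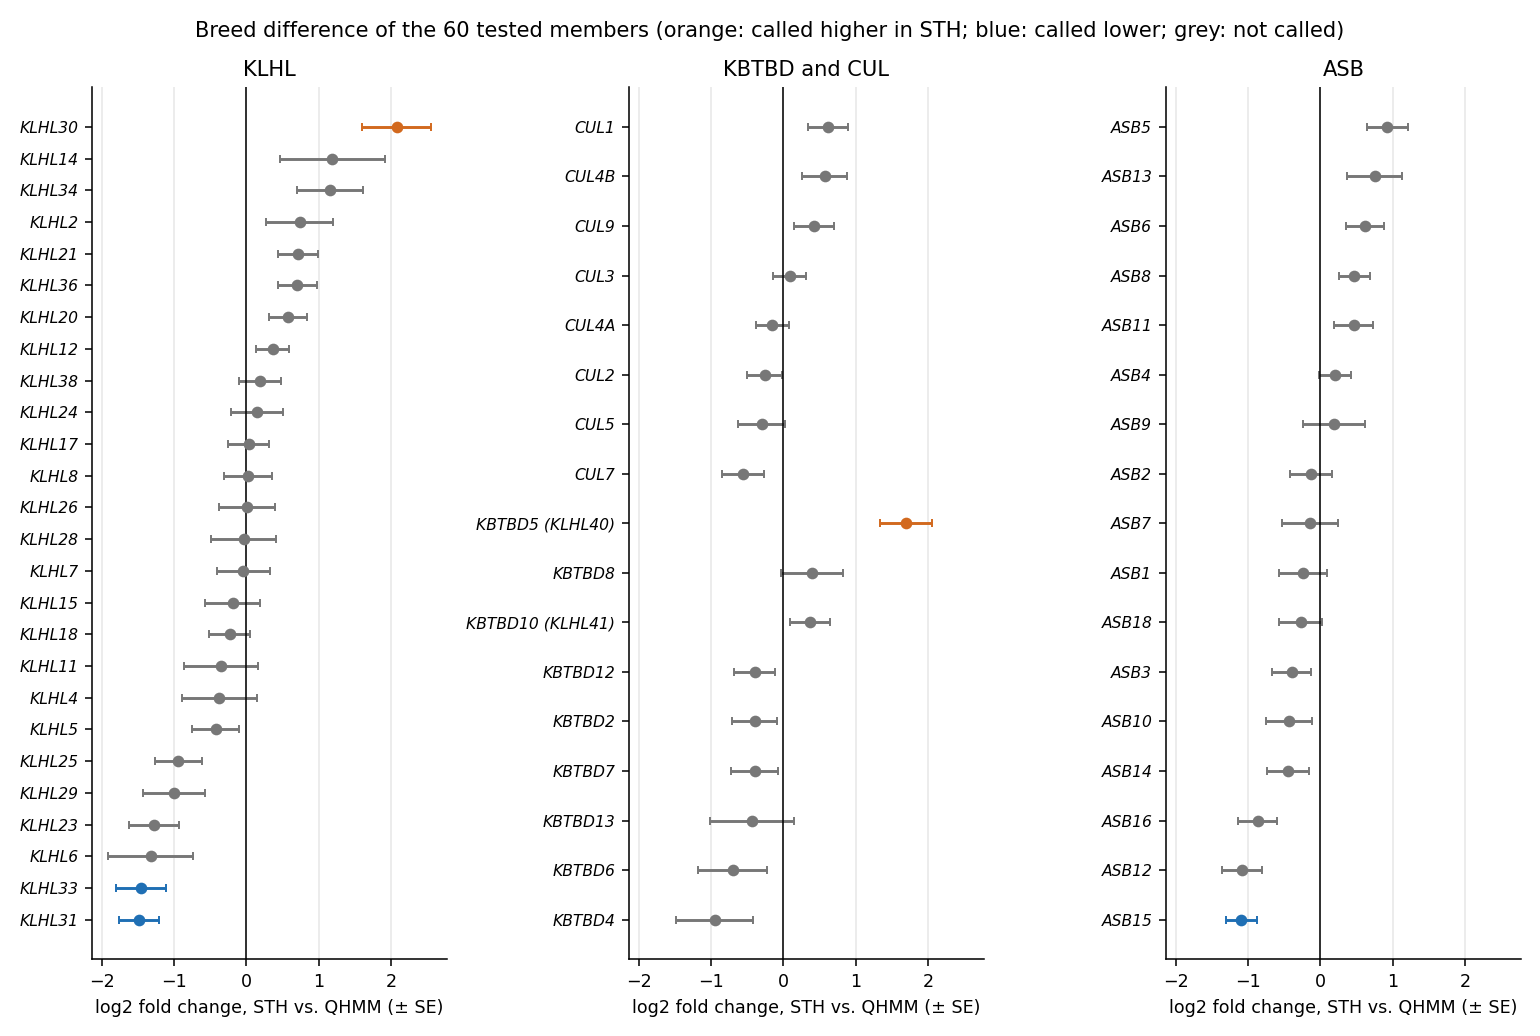
Log2 fold change in STH vs. QHMM with its SE for the 60 tested members, by family (n = 3 animals per breed). Orange marks the 2 genes called higher in STH, KLHL30 and KBTBD5, and blue the 3 called lower, KLHL31, KLHL33 and ASB15; all CUL genes are grey.

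KBTBD5 (KLHL40) is a muscle protein that stabilizes nebulin and leiomodin-3, both proteins of the thin filament. The QHMM animals, in the order of their replicate numbers, had 2019, 2101 and 1687 normalized counts, and the STH animals had 5047, 3658 and 10154. The QHMM animals lay close together, all STH animals lay above them, and STH replicate 3 was far the highest. This was a log2 fold change of 1.70 (SE 0.36, edgeR FDR = 0.0326), a 3.25-fold rise. Without STH replicate 3 it was 1.17 and remained past the threshold (FDR = 0.0452). The call was lost without any 1 of the QHMM replicates 1, 2 and 3, where the FDR was between 0.0858 and 0.111. In the RefSeq annotation of a newer sheep assembly, the span of this gene overlaps that of HHATL, which the count table places on the opposite strand. Whether the authors counted by strand is not given in the sources used here. HHATL had 1209, 1523 and 939 normalized counts in QHMM and 579, 657 and 1059 in STH. Its change of -0.68 on the log2 scale (SE 0.28, FDR = 0.220) was opposite in sign to that of KBTBD5. HHATL was looked up after the KBTBD5 values were known.

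KBTBD10 (KLHL41), which is related to KLHL40 and acts on nebulin too, had 19598, 18741 and 30297 normalized counts in QHMM and 27425, 27454 and 33407 in STH. QHMM replicate 3 lay within the STH range, and KBTBD10 was not called (log2 fold change 0.36, SE 0.28, FDR = 0.520). As a share of the KBTBD10 level in RPKM, the level of KBTBD5 was 14.2%, 15.5% and 7.69% in the QHMM libraries. In the STH libraries it was 25.4%, 18.4% and 42.0%. The ratio was thus higher in all STH animals, whatever the scaling between libraries, but with 3 animals against 3 an exact permutation test cannot give a p below 0.10 and none was run. KBTBD13, the other kelch gene of nemaline myopathy, was near the limit of detection, with 8, 25 and 14 reads in QHMM and 21, 7 and 10 in STH (log2 fold change -0.44, SE 0.58, FDR = 0.732).

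Of the genes for proteins that these receptors are known to bind, NRAP was called and NEB and LMOD3 were not. NEB, the giant thin-filament ruler, differed by -0.06 on the log2 scale of the counts (SE 0.26, FDR = 0.929) and by 0.05 on log2(RPKM + 1). LMOD3, which codes for leiomodin-3, had 5734, 4998 and 11056 normalized counts in QHMM and 3795, 5852 and 3129 in STH, so that the breeds overlapped (log2 fold change -0.77, SE 0.35, FDR = 0.266). NRAP, a scaffold of myofibril assembly that binds KLHL41, had 24412, 41296 and 32985 normalized counts in QHMM and 65202, 70712 and 95942 in STH. All STH animals lay above the QHMM animals, and the log2 fold change of 1.23 (SE 0.30, FDR = 0.0497) was just past the threshold. Leaving out any 1 of the 6 libraries ended that call, with an FDR between 0.0519 and 0.176, as did a minimum of 10 counts in every library (FDR = 0.0522).

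KLHL30 is a little studied kelch gene. The QHMM animals had 74.6, 88.5 and 52.2 normalized counts and the STH animals 205, 141 and 566. As for KBTBD5, all STH animals were above all QHMM animals and STH replicate 3 was the highest. The rise was 4.23-fold (log2 fold change 2.08, SE 0.47, FDR = 0.0423), the largest of the tested members on the log2 scale. Much of its size came with STH replicate 3, since the log2 fold change was 1.28 without that library (FDR = 0.0679). The call was lost without QHMM replicate 1, 2 or 3 as well, with an FDR between 0.0907 and 0.131, and with robust dispersions the FDR was 0.0619. In level, KLHL30 was 4.57 ± 0.841 RPKM in QHMM (mean ± SD, n = 3) and 19.8 ± 11.3 in STH (n = 3).

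KLHL31, a muscle kelch protein whose loss in mice causes a myopathy with excess filamin C, fell in STH. It had 1942, 1411 and 1938 normalized counts in QHMM and 837, 426 and 618 in STH. Every STH animal was below every QHMM animal, and the lowest value was that of STH replicate 2. KLHL31 was 2.81-fold higher in QHMM (log2 fold change -1.49, SE 0.28, FDR = 0.0207). This was the lowest FDR of the members. The call was lost on leaving out replicate 1 or 3 of QHMM or replicate 2 of STH, where the FDR was 0.0664, 0.0687 and 0.0505, while the log2 fold change stayed between -1.77 and -1.30 with any 1 library left out. KLHL30 and KLHL31 moved in opposite directions. The level of KLHL30 was 4.40% to 10.2% of that of KLHL31 in QHMM and 40.1% to 149.7% in STH. Since these genes were called in opposite directions in the same libraries, the ratio restates those calls and adds no evidence.

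KLHL33 had 461, 814 and 872 normalized counts in QHMM and 232, 157 and 391 in STH. The STH animals lay below the QHMM animals, with the smallest gap between QHMM replicate 1 and STH replicate 3. The log2 fold change of -1.46 (SE 0.35, FDR = 0.0497) was only just past the threshold. Leaving out any single library other than STH replicate 3 ended the call, with an FDR between 0.0545 and 0.141, and without STH replicate 3 the FDR was 0.0270. With limma-trend on log2(RPKM + 0.1) the FDR was 0.0537.

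ASB15, an ankyrin-repeat and SOCS-box gene of skeletal muscle that has been linked to protein turnover in muscle cells, had 537, 484 and 660 normalized counts in QHMM. In STH it had 271, 256 and 259.7. The STH animals were almost alike and were all well below the QHMM animals. ASB15 was 2.13-fold higher in QHMM (log2 fold change -1.09, SE 0.21, FDR = 0.0225). The call was lost on leaving out replicate 1 or 3 of QHMM or replicate 2 or 3 of STH, with an FDR between 0.0520 and 0.0859. With limma-trend on log2(RPKM + 1) the log2 fold change was -0.88 and ASB15 was not called (FDR = 0.0908).

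**Figure D3:**
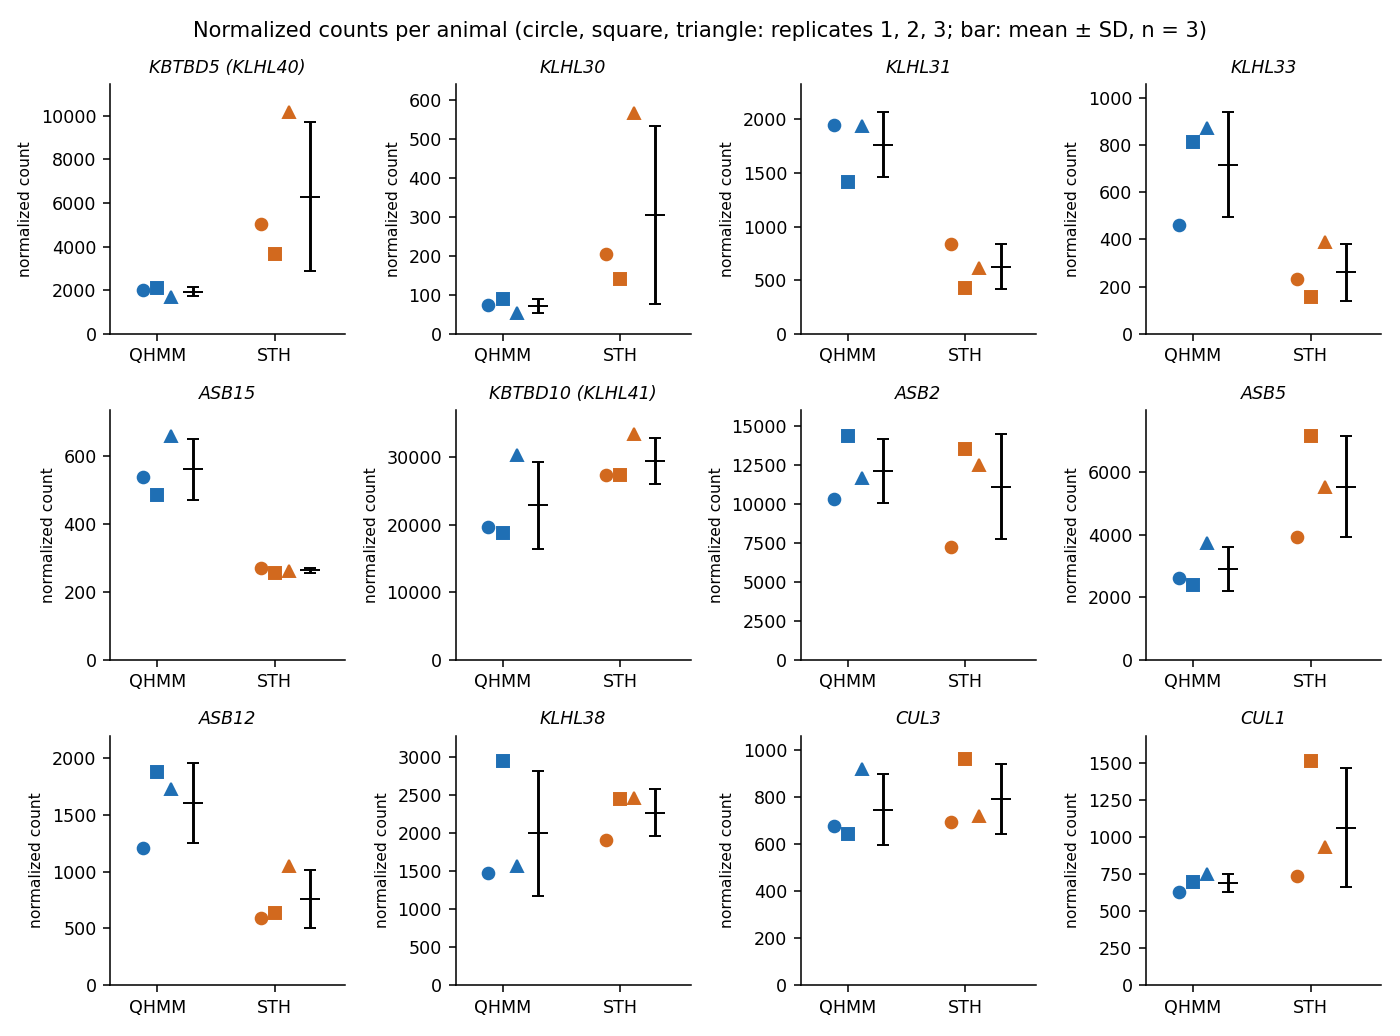
Normalized counts per animal for 12 members, each on its own axis from 0, with the mean ± SD of the 3 animals of a breed as a black bar. STH replicate 3 (orange triangle) stands far above the other animals for KBTBD5 and KLHL30, while ASB15 has STH values of 256 to 271 below all QHMM values, and CUL3 overlaps between the breeds.

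The other abundant ASB genes went different ways. ASB2, which brings filamins to the ligase, had 10359.6, 14375 and 11665 normalized counts in QHMM and 7249.8, 13564 and 12517 in STH. STH replicate 1 was the lowest and the breeds overlapped (log2 fold change -0.13, SE 0.29, FDR = 0.859). ASB5, which is also expressed in satellite cells and vessels, had 2622, 2402 and 3719 normalized counts in QHMM and 3932, 7150.0 and 5537 in STH. All STH animals were higher, but the log2 fold change of 0.93 (SE 0.29, FDR = 0.110) did not pass the threshold with edgeR. DESeq2 called ASB5, at an FDR of 0.0297. The level of ASB5 was 12.3% to 23.4% of that of ASB2 in QHMM and 32.5% to 39.9% in STH.

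ASB12 had 1206, 1878 and 1729.6 normalized counts in QHMM and 589, 633 and 1048 in STH, without overlap. Its log2 fold change of -1.09 was close to that of ASB15, but the SE was 0.28 and the FDR of 0.0640 missed the threshold. Of the 17 alternative settings, 7 called ASB12. ASB16 was likewise lower in every STH animal, with 346, 591 and 424.5 normalized counts in QHMM and 268, 178 and 298 in STH (log2 fold change -0.87, SE 0.27, FDR = 0.113). ASB8 was higher in every STH animal (log2 fold change 0.47, SE 0.21, FDR = 0.255), and ASB11 overlapped between the breeds (0.46, SE 0.27, FDR = 0.398). Of the 17 tested ASB genes, 7 had a positive and 10 a negative log2 fold change, with a median of -0.14. ASB3 is uncertain, since its row is matched in the table to another gene, GPR75.

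Of the filamin genes, FLNC and FLNA are described here. FLNC, the muscle filamin, had 66142, 67838 and 36045 normalized counts in QHMM and 177500.5, 106416 and 361296 in STH. All STH animals were above the QHMM animals and STH replicate 3 was the highest, as for KBTBD5 and KLHL30. The log2 fold change was 1.92 (SE 0.45, FDR = 0.0457), and it was 1.33 without STH replicate 3 (FDR = 0.0727). The call was lost without QHMM replicate 1, 2 or 3 as well, with an FDR of 0.0964 to 0.144. FLNA differed by -0.06 on the log2 scale of the counts (SE 0.29, FDR = 0.937) and by 0.04 on log2(RPKM + 1).

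Among the further kelch genes with high levels, KLHL38 had 1472, 2952 and 1577 normalized counts in QHMM and 1915, 2449 and 2462 in STH. QHMM replicate 2 was the highest of all, and the log2 fold change of 0.19 (SE 0.29, FDR = 0.782) came to -0.01 without QHMM replicate 1. KBTBD12 was highest in QHMM replicate 1 and lowest in STH replicate 2 (log2 fold change -0.40, SE 0.28, FDR = 0.490). KLHL21, which acts with CUL3 on Aurora B kinase in cell division, had 308, 537 and 365 normalized counts in QHMM and 481, 822 and 675 in STH, and the breeds overlapped (0.71, SE 0.28, FDR = 0.189). KLHL12, which ubiquitinates the coat protein SEC31 in the secretory pathway, had 0.36 (SE 0.23, FDR = 0.434). KLHL23 had 98.9, 61.3 and 134 normalized counts in QHMM and 49.9, 32.3 and 38.4 in STH. All STH animals were lower, and the log2 fold change of -1.28 (SE 0.34) had an FDR of 0.0711. DESeq2 called KLHL23 (FDR = 0.0174), as did edgeR without a filter on low counts (FDR = 0.0320), and in RPKM the breeds overlapped.

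KLHL3, which targets the WNK kinases in the kidney, had only 3 to 19 counts per library. Its target genes were read at very different levels, WNK1 at 27.1 ± 3.17 RPKM in QHMM (mean ± SD, n = 3) and 25.5 ± 3.40 in STH (n = 3), and WNK4 at 0.536 ± 0.360 and 0.844 ± 0.373. Neither passed the test, with an FDR of 0.648 for WNK1 and 0.593 for WNK4. Of the BTB-kelch genes that the naming rule missed, KEAP1, the sensor that holds the antioxidant factor NRF2 in check, was at 82.8 ± 4.76 RPKM in QHMM and 101 ± 16.3 in STH. Its log2 fold change was 0.19 (SE 0.26, FDR = 0.735), and that of NFE2L2, the gene of NRF2, was 0.05 (SE 0.24, FDR = 0.937).

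IPP, another BTB-kelch gene outside the rule, had 133, 188 and 237 normalized counts in QHMM and 84.0, 70.0 and 66.6 in STH. It fell by 1.33 on the log2 scale (SE 0.28, FDR = 0.0318), with every STH animal below every QHMM animal. The call was lost without QHMM replicate 2 or 3 or STH replicate 2 or 3, with an FDR between 0.0721 and 0.110, and with limma-trend on log2(RPKM + 1), where the FDR was 0.125. IVNS1ABP was lower in every STH animal without passing the threshold (-0.63, SE 0.24, FDR = 0.187). ENC1 had at most 54 counts in any library and an FDR of 0.798. The table has 5 further rows whose protein match, but not whose symbol, is a KLHL or KBTBD gene. They include the matches to KLHL9, KLHL13, KLHL22 and KLHL42, and all 5 overlapped between the breeds on normalized counts. In RPKM the KLHL22 match was higher in every STH animal, at 5.93 in QHMM and 7.16 in STH on average. It was not called (edgeR FDR = 0.747).

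Beyond the 5 called genes, 10 members kept the breeds apart without being called, 5 with all STH animals above and 5 with all below. In total 15 of the 60 tested members did not overlap, 7 above and 8 below. In the background 24.7% of tested genes did not overlap, 13.0% above and 11.7% below, so the members were close to the background in this respect. Overlap is given on normalized counts throughout unless RPKM is named, and 10 members go from overlapping to not overlapping or back with the scale. In RPKM 19 did not overlap, 12 above and 7 below, beside 23.3% of 12487 genes, 15.4% above and 7.82% below. KLHL12, KLHL21, ASB4, ASB11, ASB13 and CUL1 were then above and KLHL25 below, while KLHL20, KLHL23 and ASB10 overlapped. Besides those described, the 10 include KLHL36, KLHL20 and ASB6 above, and KLHL29 and ASB10 below, which are named here because their values had been seen. STH replicate 3 was the highest library for 5 of the 7 members whose STH animals were all above. STH replicate 2 was the lowest for 6 of the 8 whose STH animals were all below. The same shares over all tested genes were not computed, so they cannot be called particular to the members.

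No cullin was called. CUL3, the scaffold of the kelch receptors, had 679.9, 643 and 919.5 normalized counts in QHMM. In STH it had 695, 965 and 720.3. The breeds overlapped, and the log2 fold change was 0.09 (SE 0.23, FDR = 0.883). CUL5, the scaffold of the ASB receptors, had 161, 116 and 261 normalized counts in QHMM and 159, 172 and 105 in STH (log2 fold change -0.30, SE 0.33, FDR = 0.666). The receptors thus changed in some genes while neither scaffold passed the test, and the difference between receptor and scaffold was not itself tested.

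CUL4A, which joins DDB1 in ligases for DNA repair and chromatin, was by far the most abundant cullin, at 149 ± 15.2 RPKM in QHMM (mean ± SD, n = 3) and 145 ± 8.17 in STH (n = 3). Its paralog CUL4B was at 1.10 ± 0.441 and 1.78 ± 0.592 RPKM, and its share of the CUL4A level did not separate the breeds. CUL1, the scaffold of the SKP1 and F-box ligases, was next at 20.2 ± 2.84 and 33.8 ± 14.5 RPKM. It had 630.4, 698 and 753 normalized counts in QHMM and 741, 1516 and 937 in STH, where replicate 2 stood out. The log2 fold change of CUL1 was 0.62 (SE 0.27, FDR = 0.249), and it was 0.26 without STH replicate 2. CUL7, which works with FBXW8, was lowest in STH replicate 2, at 283 normalized counts where the other libraries had 541 to 789 (-0.56, SE 0.29, FDR = 0.326). CUL2, CUL9 and CUL4B had an FDR between 0.350 and 0.608.

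Other components of the cullin ligases, some common to all and some particular to single cullins, were measured through a list of 33 genes. They cover the RING partners, adaptors, the NEDD8 pathway, exchange factors, the COP9 signalosome and E2 or helper enzymes. Of these, 16 had a positive and 17 a negative log2 fold change, the median was -0.01, and edgeR called 0, beside 3.45% of all tested genes. In a list this short, 0 calls is near that share. At an unadjusted p below 0.05 there were 2, DCUN1D4 and CDC34, beside 19.2% of all tested genes, and DESeq2 called 0 as well. The most abundant gene of the list was CDC34, an E2 enzyme of the CUL1 ligases, at 508 ± 17.5 RPKM in QHMM (mean ± SD, n = 3) and 319.7 ± 94.1 in STH (n = 3). It had 4123, 5172 and 4017 normalized counts in QHMM and 1941, 1911 and 4176 in STH, so that STH replicate 3 lay among the QHMM animals. In RPKM all STH animals were below the QHMM animals, with STH replicate 3 at 427 and the QHMM animals at 500, 529 and 496. CDC34 was not called (log2 fold change -0.73, SE 0.32, FDR = 0.253). Without STH replicate 3, CDC34 was the 1 gene of the list that was called.

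NEDD8 had 849.9, 1024 and 874 normalized counts in QHMM and 629, 634 and 931 in STH, so that the breeds overlapped (log2 fold change -0.33, SE 0.23, FDR = 0.480). UBE2M, the E2 enzyme that hands NEDD8 to most cullins, had 0.31 (SE 0.21, FDR = 0.452). In RPKM the breeds did not overlap for these genes, with NEDD8 lower and UBE2M higher in every STH animal. RBX1 and RNF7, the RING partners of the CUL1 to CUL4 and the CUL5 ligases, were not called, at -0.30 (SE 0.20, FDR = 0.462) and -0.26 (SE 0.21, FDR = 0.562). Both were lower in every STH animal on normalized counts but overlapped between the breeds in RPKM. The 10 genes of the COP9 signalosome group, which removes NEDD8, overlapped between the breeds on normalized counts, with a median log2 fold change of 0.04, while in RPKM GPS1, COPS3 and COPS7B were higher in every STH animal. CAND2, the exchange factor typical of muscle, was at 61.6 ± 14.4 RPKM in QHMM and 57.1 ± 17.2 in STH. Its widely expressed paralog CAND1 reached 1.38% to 7.17% of its level over the 6 libraries.

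**Figure D4:**
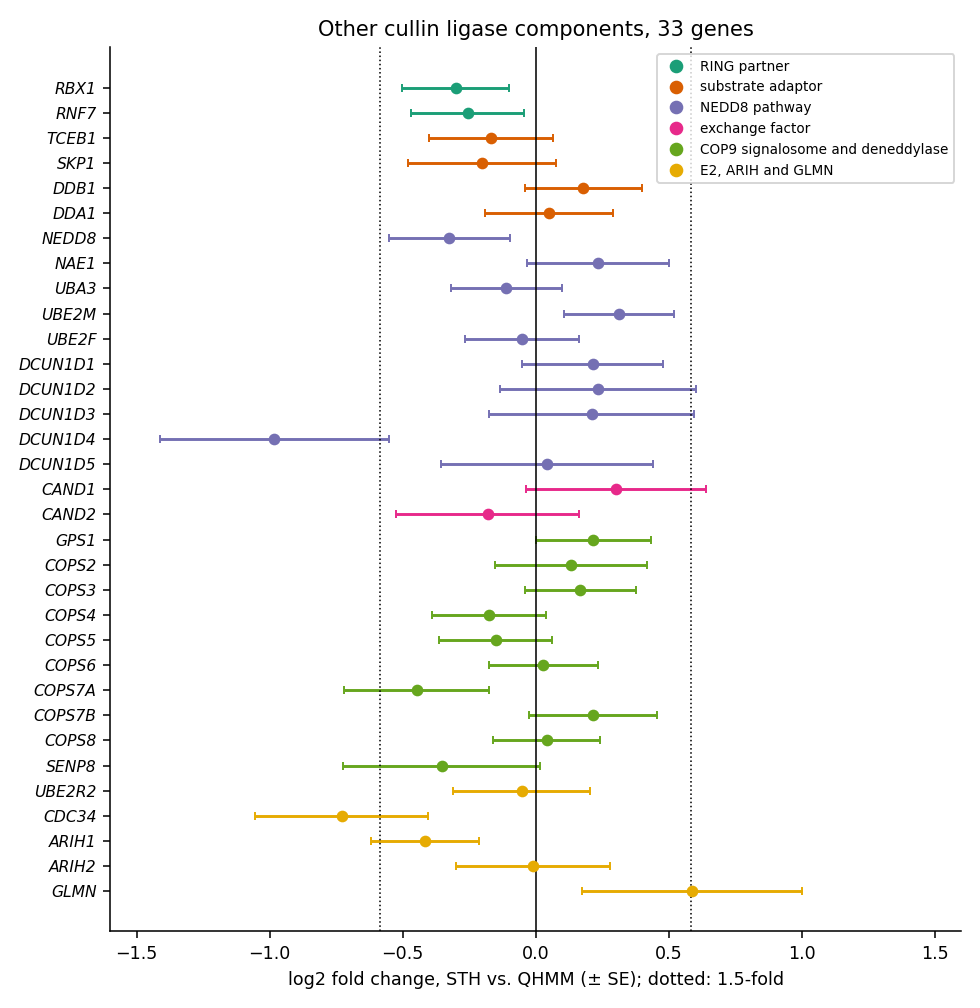
Log2 fold change in STH vs. QHMM with its SE for the 33 other components of the cullin ligases, coloured by role, with dotted lines at a 1.5-fold change (n = 3 animals per breed). The points lie around 0 with a median of -0.01, and the genes farthest out, DCUN1D4 and CDC34, had an FDR of 0.245 and 0.253.

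Markers of fibre type and of other cells were read beside the members. All 10 slow-fibre markers that the table holds had a negative log2 fold change in STH, and 5 were called. Their sum was 16733 to 24425 RPKM in QHMM and 7383 to 11514 in STH, and none of them was at 0. Of the 8 fast-fibre markers tested, all had a negative log2 fold change and 0 were called by edgeR, with 3 at an unadjusted p below 0.05. Their list summed to 36695 to 42331 RPKM in QHMM and 28927 to 40935 in STH, with TNNT3 listed at 0 and PVALB at 0 in 1 STH library. Of 5 adipocyte markers, 4 were called lower in STH, with a sum of 59.2 to 276 RPKM in QHMM and 40.3 to 129 in STH, and LEP was at 0 in 1 STH library. The 3 fibroblast markers had a negative log2 fold change too. KLHL31, KLHL33 and ASB15 thus shared their sign with the slow-fibre, fast-fibre, adipocyte and fibroblast markers alike, and KBTBD5 and KLHL30 had the opposite sign. The part of fibre type or cell content in these differences was not tested, and in whole muscle, fewer cells of a type and less RNA per cell cannot be told apart. Of 3 satellite-cell markers CDH15 was called higher in STH (log2 fold change 1.12, SE 0.26, FDR = 0.0448). PAX7 and MYF5 had a negative log2 fold change and were not called, at -1.43 (SE 0.70, FDR = 0.294) and -0.00843 (SE 0.54, FDR = 0.994). EdgeR called 0 of the endothelial and fibroblast markers, with 1 fibroblast marker at an unadjusted p below 0.05. Only PTPRC was tested among the blood markers, and it was not called. HBB and HBA have no row, and ALAS2 had at most 9 counts in any library.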

How the data were processed

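Longissimus muscle RNA of 3 QHMM and 3 STH sheep was sequenced, and groups were taken from the breed given in the labels. The authors filtered the Ion Proton reads, mapped them to the sheep genome Oar_v3.1 and kept unique matches. They deposited raw counts per gene and RPKM values for each library. The aligner and the counting program are not given in the sources used here. Ratios of the deposited counts to the deposited RPKM gave 1 length per gene, so that RPKM followed the counts, although the methods also name an upper-quartile correction.

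Counts were tested with edgeR 4.0.16 in R 4.3.3 (TMM factors, filterByExpr by breed, quasi-likelihood F test, breed as the only term). The q-values of Benjamini and Hochberg (FDR) covered all 12506 tested genes, and a gene was called at an FDR below 0.05 and a fold change above 1.5 in either direction. A normalized count is a count divided by the library's effective size and multiplied by the median library total. RPKM was tested with limma 3.58.1 on log2(RPKM + 1), after requiring at least 1 RPKM in at least 3 libraries, which understates changes of low genes. On counts simulated for this comparison, 12285 genes passed the filter, of which 194 had been given a change. Changed genes that the filter removed are not counted. The share that edgeR recovered was 41.8% over these and 77.5% for 4-fold changes, with 5.81% false calls.

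Alternatives were DESeq2 1.42.0, upper-quartile factors, other filters, robust dispersions, no minimum fold change, a replicate block, a pseudocount of 0.1 and leaving out libraries. Named were each called member, the 8 KLHL or KBTBD and 6 ASB members of highest RPKM, each tested CUL gene, the 5 members with the largest absolute log2 fold change at a mean count of at least 20, known muscle members, a list of partners, other ligase components that were called or among the 3 of highest RPKM, and further kelch genes, some of which are not reported here. Members and lists were chosen with earlier results of these data known. RefSeq gene names and neighbours came from the assembly ARS-UI_Ramb_v3.0, without coordinates. The comparison of overlap in RPKM was added after seeing the data and covered 12487 genes, since the other names are not found in the RPKM table. Limits on 0 counts cover counting error only.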

Additional observations from a re-analysis of the deposited data

How the results depend on the processing

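Of the 60 tested members, edgeR called 2 higher and 3 lower in STH. The number higher was 3 with DESeq2, which added ASB5, 1 with robust dispersions, 0 with limma-trend on unfiltered log2(RPKM + 1) and 0 without both QHMM replicate 2 and STH replicate 3, and it ranged from 0 to 2 with any 1 library left out. The number lower was 5 with DESeq2, 5 without a filter on low counts, 0 with limma-trend on unfiltered log2(RPKM + 1) and 0 without both libraries, and it ranged from 0 to 3 with 1 library left out. The cause of these shifts was not tested. Of the other ligase components, 0 genes were called higher in any setting, and 0 to 1 lower with 1 library left out. Over all genes the calls went from 432 to 975 with DESeq2, 806 without a filter and 78 with unfiltered RPKM, and they ranged from 131 to 535 with 1 library left out and fell to 11 without both. The split of higher and lower calls was 203 and 229 on counts, 212 and 134 on log2(RPKM + 1) and 203 and 124 on log2(RPKM + 0.1), where the median of all genes lay at 0.12 and 0.14 and that of the members at 0.01 and -0.002. The sign of these log2 fold changes, none of them called, depended on the setting. With 1 library left out, KLHL38 ranged from -0.0143 to 0.58, KBTBD13 from -0.84 to 0.20, ASB2 from -0.31 to 0.0887, CUL3 from -0.10 to 0.26 and CUL5 from -0.53 to 0.0722. The ranges were -0.17 to 0.0661 for NEB, -0.24 to 0.14 for FLNA, -0.15 to 0.17 for NFE2L2 and -0.11 to 0.81 for ENC1. Without both libraries KBTBD13 was at 0.24 and NFE2L2 at -0.00746. In the 3 RPKM settings NEB was at 0.0501 or 0.0502 and FLNA at 0.0354 or 0.0356. The shared replicate numbers gave no consistent pairing of the animals. The correlations of same-numbered libraries' deviations were 0.23, -0.04 and -0.13, and not every library correlated best with its own number. The highest correlation was 0.29, between QHMM replicate 2 and STH replicate 3. With 3 animals per breed, these values cannot exclude pairing. With the number as a replicate block, 1 member was called higher (KBTBD5) and 4 lower, and 457 genes in all. With 3 animals per breed and SEs near 0.28 for abundant members, smaller differences were not detectable, and members under 1 RPKM had a median SE of 0.51.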
